A study of Caenorhabditis elegans with 3 samples.

Results

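Promoter peaks without a GATA site are places near the 5′ ends of genes where ELT-3 ChIP-seq gave a peak although the sequence that GATA factors are known to recognise was not found beside the peak's summit. A peak of the main list belonged here when its summit lay between 1000 bp upstream and 200 bp downstream of a protein-coding 5′ end and no WGATAR word lay within 100 bp of the summit. WGATAR is A or T, then GATA, then A or G, read on either strand. Of the 1202 peaks in the list, 530 had a promoter summit, and 300 of these (56.6%, exact 95% interval 52.3% to 60.9%) lacked the word. They made up 25% of the list, and the 230 promoter peaks that held a site served as their reference. The 300 summits lay in the promoter windows of 420 genes.

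The chromatin came from whole first-stage (L1) larvae of one transgenic strain, OP75, with the genotype unc-119(ed3) III and the insertion wgIs75, in which ELT-3 carries GFP-FLAG at its C-terminus. Males and females were pooled, the age of the larvae is recorded as unknown, and the antibody is labelled elt-3. The 3 libraries form 1 group with 2 biological replicates, and no other genotype or treatment was compared. Only peak lists were analysed, and without read counts the sequencing depth behind a peak is unknown. Because all larvae came from 1 line with a tagged protein, a property of that line cannot be told apart from one of ELT-3.

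ELT-3 is one of the zinc-finger GATA factors of Caenorhabditis elegans and is known mainly from the epidermis, where it acts with related factors on genes of that tissue. GATA factors contact DNA through a zinc finger that reads the GATA core and its neighbours. ChIP-seq recovers DNA that a factor contacts directly or through other proteins, and a peak list does not tell these apart.

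The results turn on the sequence beside the summits, so that of the strongest peaks is shown first. The first 5 lines give the summit with 100 bp on each side for the 5 strongest peaks without a site whose windows touch no annotated exon, on the plus strand of ce11 (WBcel235, RefSeq sequence). Capitals mark 3 short CG-rich words on either strand. The first is CTGCGTC (on the other strand GACGCAG), the next is AGCGCG (on the other strand CGCGCT), and the last is GCGTGT (on the other strand ACACGC).
rpl-3 (chrIII:3867476-3867676): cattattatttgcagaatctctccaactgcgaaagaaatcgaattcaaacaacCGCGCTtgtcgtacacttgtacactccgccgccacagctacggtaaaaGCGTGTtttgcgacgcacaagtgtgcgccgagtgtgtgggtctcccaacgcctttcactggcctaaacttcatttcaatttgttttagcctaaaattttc
cdc-48.1 (chrII:10563469-10563669): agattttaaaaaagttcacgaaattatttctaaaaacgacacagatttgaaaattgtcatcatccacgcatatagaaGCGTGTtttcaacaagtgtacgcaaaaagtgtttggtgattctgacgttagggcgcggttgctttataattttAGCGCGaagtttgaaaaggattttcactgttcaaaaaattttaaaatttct
Y17G9B.5 and rpl-20 (chrIV:4749965-4750165): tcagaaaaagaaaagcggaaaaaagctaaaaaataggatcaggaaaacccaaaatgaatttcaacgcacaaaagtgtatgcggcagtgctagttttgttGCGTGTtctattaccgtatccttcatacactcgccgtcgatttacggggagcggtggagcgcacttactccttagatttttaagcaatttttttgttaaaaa
rpl-15 and K11H12.8 (chrIV:654827-655027): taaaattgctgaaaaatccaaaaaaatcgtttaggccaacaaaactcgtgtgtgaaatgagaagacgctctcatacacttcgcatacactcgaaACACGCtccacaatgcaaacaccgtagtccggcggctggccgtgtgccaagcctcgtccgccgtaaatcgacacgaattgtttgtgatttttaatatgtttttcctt
rpl-35 (chrIII:7854576-7854776): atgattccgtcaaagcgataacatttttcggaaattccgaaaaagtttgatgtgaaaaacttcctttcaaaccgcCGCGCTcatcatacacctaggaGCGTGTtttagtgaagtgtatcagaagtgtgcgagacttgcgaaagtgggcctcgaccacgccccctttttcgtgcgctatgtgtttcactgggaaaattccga
All 5 windows held GCGTGT, and 3 of them also held AGCGCG. Both words were picked by a search of the windows of these same peaks, described below. Over all peaks without a site GCGTGT lay in 20% and AGCGCG in 25%, so the 5 windows do not stand for the rest. For contrast, the next 2 lines give promoter peaks with a site, taken by the same rule among the chromosomes printed here, where capitals mark WGATAR words.
H10E21.1 and nhr-80 (chrIII:15352-15552): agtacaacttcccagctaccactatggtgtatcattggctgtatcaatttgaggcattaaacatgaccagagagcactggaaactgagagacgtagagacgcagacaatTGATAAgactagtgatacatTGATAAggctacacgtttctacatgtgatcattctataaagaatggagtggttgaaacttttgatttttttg
F16G10.14 (chrII:2399855-2400055): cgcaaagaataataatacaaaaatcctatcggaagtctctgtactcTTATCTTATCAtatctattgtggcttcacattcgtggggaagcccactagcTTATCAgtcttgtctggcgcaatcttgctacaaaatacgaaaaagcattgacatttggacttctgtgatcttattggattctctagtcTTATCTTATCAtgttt
The nhr-80 window held 2 words, both TGATAA, and the F16G10.14 window held 5, some of them overlapping. The CG-rich words were not capitalised in these 2 windows. The nhr-80 window also held CTGCGTC, read on the other strand, which none of the 5 windows without a site held. The F16G10.14 window held none of the 3 CG-rich words. Both lists of words are matches of letters, and neither marks a site shown to be bound.

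Peaks without a site included most of the strongest promoter peaks. Signal here is the authors' value per peak, on a scale that differs between lists. The main list was filtered by the authors on its irreproducible discovery rate (IDR), a measure that compares the ranks of peaks between replicates. In it the 300 peaks had signals from 35.5 to 276.4 with a median of 49.0, against 35.8 to 158.5 with a median of 47.0 for promoter peaks with a site. The quartiles were 41.6 and 66.8 without a site and 41.4 and 60.2 with one, so the groups overlapped over nearly all of their range. Of the 10 strongest promoter peaks 9 lacked a site, as did 21 of the strongest 25, 38 of the strongest 50 and 68 of the strongest 100. The 3 strongest peaks with a site, at his-37, puf-9 and wdr-23 (signals of 158.5, 130.7 and 124.9), had their nearest word at 83, 84 and 83 bp from the summit, against a median of 34 bp for all peaks with a site. Over all promoter peaks the difference was small. The signal exceeded the list's median of 48.0 in 163 of 300 peaks without a site (54.3%, 48.5% to 60.1%) and in 110 of 230 with one (47.8%, 41.2% to 54.5%). That difference of 6.51 percentage points did not pass the test (two-sided Fisher's exact test, adjusted p = 0.281 over 7 differences). By quartile groups of promoter signal, low to high, the share without a site was 55.6%, 52.3%, 56.8% and 61.7%. The −log10 q-value could not rank them, because 260 of the 300 stood at the list's highest value of 3.32.

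**Figure D1:**
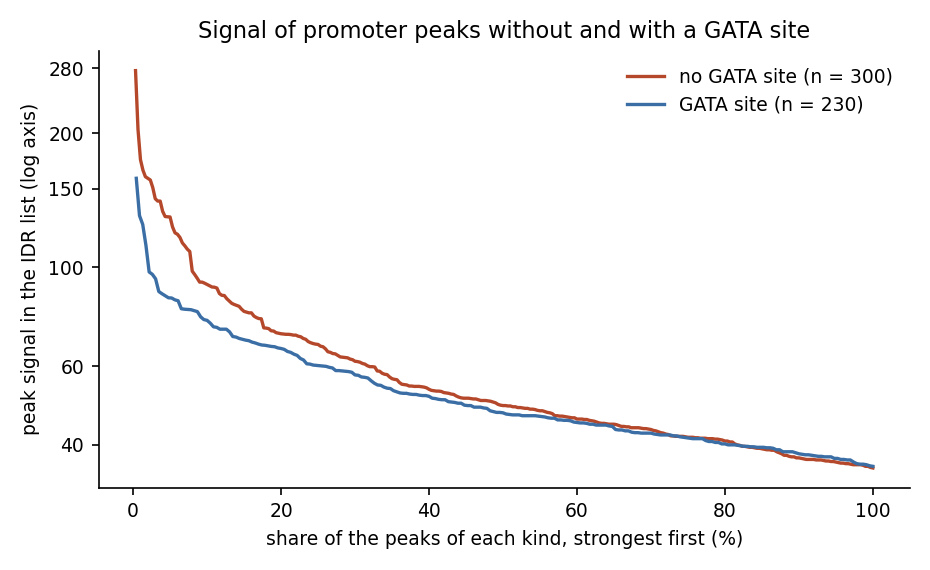
Peak signal (log axis) against the share of peaks of each kind, strongest first, for 300 promoter peaks without a GATA site and 230 with one. The curves separate among the strongest peaks, up to 276.4 without a site and 158.5 with one, and lie close together below the medians of 49.0 and 47.0.

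The strongest peak of all lay at −278 bp from the 5′ end of rpl-3, a gene for a large-subunit protein of the ribosome (negative positions are upstream). Its signal was 276.4 in the IDR list and 275.0 in replicate 1, where it also ranked first, and no replicate 2 peak overlapped it. The peak at −162 bp from cdc-48.1, which encodes the worm's p97-type ATPase and pulls ubiquitinated proteins out of complexes, had signals of 204.0 in the IDR list, 194.0 in replicate 1 and 7.91 in replicate 2. It ranked 2 in replicate 1 and 26 in replicate 2, so it was high in both. The next peak, at −65 bp from iff-2, which encodes an eIF5A-type translation factor, and at −870 bp from F54C9.14, had 174.5 in the IDR list and 172.6 in replicate 1. The peak shared by Y17G9B.5 and rpl-20 had 165.3 and 165.7 in the same lists, that shared by rpl-15 and K11H12.8 had 159.8 and 158.3, and that of rpl-35 had 157.1 and 155.4. Of the last 4 peaks, that of rpl-35 alone was overlapped in replicate 2, with a signal of 2.35, below that replicate's median of 2.65.

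Ribosomal protein genes recurred further down. The promoters of rps-12 (151.0, shared with ska-3, a kinetochore protein gene), rpl-12 (140.9, shared with lin-54, the DNA-binding subunit of the DREAM complex), rps-19 (130.1, shared with hsr-9, a homologue of 53BP1), rps-1 (123.3, shared with ifet-1, a translational repressor that binds eIF4E), rps-28 (108.6, shared with Y41D4B.4) and rpl-11.2 (96.4) were among the 25 strongest. Together with the genes above, 10 of these 25 peaks had a ribosomal protein gene in the window.

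The remaining strong promoters belonged to genes of varied function. In protein turnover and secretion they were those of wwp-1, a HECT-type ubiquitin ligase (133.6), of sec-61.G, which encodes the gamma subunit of the protein-conducting channel of the endoplasmic reticulum (119.6), and of ubql-1, a ubiquilin, which shares its promoter with the protein disulphide isomerase gene pdi-3 (116.8). In translation they were eef-1A.2, an elongation factor (113.5), and icd-2, a subunit of the nascent polypeptide-associated complex (111.8). Nuclear import was represented by imb-3, an importin beta (129.9), and signalling by egl-30, a Gq alpha subunit (118.7, shared with C53H9.4). The gene nipi-3, a Tribbles-type pseudokinase known from epidermal immunity (98.1), and nhl-2, a TRIM-NHL protein that works with microRNAs (129.8, shared with tag-340), were also in this set. So were egg-5, a pseudophosphatase of the egg-to-embryo transition (142.6), and tasp-1 with K01G5.10 (158.4), serp-1.1 (140.9) and sym-4 (109.9). The egg-5 summit lay at −580 bp from egg-5 but 37 bp from the 5′ end of sls-2.4, annotated as an snRNA gene. Of the 25 strongest peaks, 3 were overlapped in replicate 2, those of cdc-48.1, rpl-35 and rpl-11.2.

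Replicate 1 carried nearly all of this. A replicate 1 peak overlapped all 300, and in 291 it was one of that replicate's 1202 strongest. A replicate 2 peak overlapped 29 of the 300 (9.67%, 6.57% to 13.6%) and 21 of the 230 promoter peaks with a site (9.13%, 5.74% to 13.6%), a difference that did not pass the test (Fisher's exact test, adjusted p = 1.00). In the whole IDR list 9.73% of peaks were overlapped, so both shares were near that of the list. Membership in the list is therefore not a call in both replicates. The 29 replicate 2 signals ran from 2.03 to 7.91 with a median of 2.61, against 2.07 to 8.62 with a median of 2.88 for the 21 with a site. Replicate 2's own nuclear peaks had a median of 2.65.

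After cdc-48.1, rpl-35 and rpl-11.2 (replicate 2 signal 3.21), the strongest peaks overlapped in replicate 2 were at H18N23.2 (79.1 in the IDR list, 2.20 in replicate 2), pdi-6, a protein disulphide isomerase (77.8 and 4.03), rps-20 with ekl-4 (73.2 and 2.70), and atp-1, the alpha subunit of the ATP synthase, with mcrs-1 (71.4 and 2.08). They were followed by sqd-1, an hnRNP-type RNA-binding protein (70.5 and 2.03), rpl-23 with swp-1 (68.2 and 3.24) and ppm-1.A, a protein phosphatase (62.1 and 3.88). The order of signals in replicate 2 was not that of the IDR list. The weaker promoter peaks of nmat-1 with ucr-2.1 (41.2 in the IDR list) and of hat-1, a histone acetyltransferase gene (56.8), had 5.77 and 5.42 in replicate 2, and were named after their values were seen.

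The share of promoter peaks without a site lay between 55.6% and 57.8% in the 4 lists examined. Beside the IDR list it was 296 of 527 (56.2%, 51.8% to 60.5%) among the 1202 strongest replicate 1 peaks, 175 of 303 (57.8%, 52.0% to 63.4%) among the 1202 strongest replicate 2 peaks, and 1456 of 2619 (55.6%, 53.7% to 57.5%) among 8880 pooled peaks that were not in the IDR list. These lists share libraries, so the values stand side by side with no test between them. Among the 672 IDR peaks outside promoter windows, 234 (34.8%, 31.2% to 38.6%) lacked a site. Promoter sequence in general lacked it more often. In 119836 windows of the same length tiled over the promoter windows of all genes, 62.1% held no WGATAR.

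Base composition moved with this. The GC content of the window around the summit had a median of 44.8% without a site, 39.8% with one and 34.8% over the promoter tiles. WGATAR is AT-rich, so absence of the word and a higher GC content are tied. Restricted to windows between the quartiles of the peaks without a site (39.8% to 49.3% GC), 157 of 259 promoter peaks (60.6%) and 69.6% of 25805 tiles lacked the word.

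Beyond the 100 bp used for selection, the nearest WGATAR lay a median of 221 bp from the summit, with a range of 101 bp to 2038 bp. A GATA core with other neighbours was present within 100 bp in 160 of the 300 (53.3%), and 140 held none at all. This share was near that of promoter tiles without WGATAR, of which 56.7% held a GATA core, and 55.0% of those of like GC content. In the 50 bp bin centred 150 bp to the right of the summit on the plus strand, the word occurred in 14.3% of peaks without a site and 14.3% of those with one. In the bin 150 bp to the left the shares were 12.3% and 15.2%. At the threshold, the nearest members were fbp-1, a fructose bisphosphatase gene (site at 101 bp, signal 42.3), wwp-1 (102 bp, signal 133.6) and rheb-1, a GTPase upstream of TOR (103 bp, signal 49.3). Just inside it, and so not counted, were C07B5.8 (100 bp, signal 42.1), C07A4.2 (100 bp, signal 39.5) and tba-2, an alpha tubulin (99 bp, signal 86.4). At the ends of the promoter window, ain-1, a GW182-type protein of the microRNA machinery (−998 bp, signal 58.6), and hrpk-1, an hnRNP K homologue (200 bp, signal 44.5), were counted. Peaks near ppm-2 (−1019 bp, signal 104.6) and T28F4.5 (214 bp, signal 85.6) were not.

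Peaks without a site lay more often in the promoter windows of more than 1 gene. The windows come from annotated 5′ ends, and which gene uses the promoter was not examined. The summit fell in the promoter windows of 2 or more genes for 113 of 300 peaks without a site (37.7%, 32.2% to 43.4%), against 40 of 230 with one (17.4%, 12.7% to 22.9%). This difference of 20.3 percentage points passed the test (two-sided Fisher's exact test, p = 2.56e-07, adjusted p = 1.79e-06), and it was the only one of the 7 that did. Most of these were divergent pairs, with genes transcribed away from each other on the 2 sides of the summit, in 97 peaks without a site (32.3%) and 33 with one (14.3%). The pairs rpl-5 and col-38, hsr-9 and rps-19, and trap-3 with sec-61.B, both genes of the translocon, are examples. The difference was 17.8 points (Fisher's exact test, adjusted p = 3.88e-05) with the cytosolic ribosomal protein promoters left out, and 19 points (adjusted p = 0.00951) within the GC quartiles. With a GATA search of 250 bp, which left 131 peaks without a site, it was 12.4 points and missed the threshold (Fisher's exact test, adjusted p = 0.0544), though it passed with the void test of peak width left out of the adjustment (adjusted p = 0.0466). Among the strongest replicate 2 peaks alone the direction was opposite, with 10.9% of peaks without a site and 17.2% of those with one (difference −6.33 points, Fisher's exact test, adjusted p = 0.763), so the result rests on replicate 1.

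Most of the 300 summits lay just upstream of a gene. The median position from the nearest 5′ end was −225.5 bp without a site and −215.5 bp with one. A summit within 300 bp upstream of a 5′ end was found in 194 peaks without a site (64.7%, 59.0% to 70.1%) and 124 with one (53.9%, 47.2% to 60.5%), and this difference of 10.8 points just missed the threshold (Fisher's exact test, adjusted p = 0.0547). The adjustment over 7 tests includes peak width, which could not differ, and over the other 6 the same difference passed (Fisher's exact test, adjusted p = 0.0469), so the void test decides this call. Taken within 500 bp the difference was 13.7 points and passed (82% against 68.3%, Fisher's exact test, adjusted p = 0.00108). It was 2.87 points with a promoter window of 500 bp upstream and 100 bp downstream, 5.48 with a GATA search of 250 bp, 6.21 among peaks above the list's median signal and 0.143 in replicate 2 alone, and passed in none of these. Between genes lay 269 summits without a site (89.7%) and 187 with one (81.3%). Exons held 18 summits without a site and 24 with one, and introns held 13 without a site and 19 with one.

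**Figure D2:**
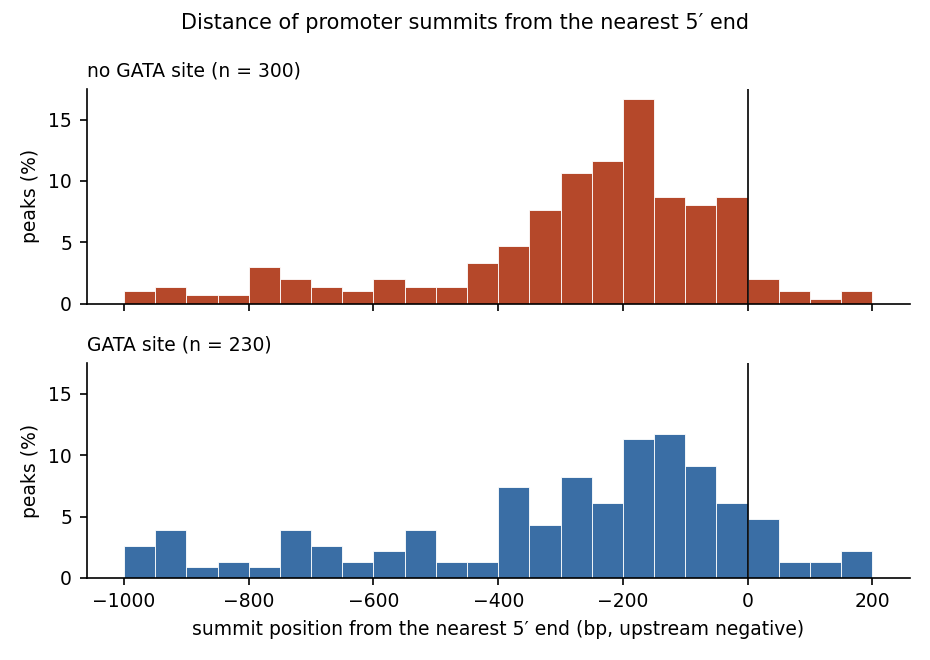
Position of the summit relative to the nearest protein-coding 5′ end (bp, upstream negative, 50 bp bins) as a percentage of peaks, for 300 promoter peaks without a GATA site above and 230 with one below. Both kinds gather upstream of the 5′ end, with medians of −225.5 bp without a site and −215.5 bp with one.

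The share of summits on X and the share beside non-coding genes were tested, and neither difference passed. Summits on X made up 53 of 300 peaks without a site (17.7%, 13.5% to 22.5%) and 43 of 230 with one (18.7%, 13.9% to 24.3%, Fisher's exact test, adjusted p = 1.00). No other chromosome was tested. Chromosome V held 38 summits without a site (12.7%) and 51 with one (22.2%), chromosome III held 64 (21.3%) without a site and 31 (13.5%) with one, and chromosome I held 64 (21.3%) without a site and 38 (16.5%) with one. A tRNA, snRNA or snoRNA gene began within 500 bp of 21 summits without a site (7.0%, 4.39% to 10.5%) and of 9 with one (3.91%, 1.80% to 7.30%), which did not pass (Fisher's exact test, adjusted p = 0.281). These 21 comprised 13 snoRNA, 6 snRNA and 2 tRNA genes. Peak width could not be compared, since 1195 of the 1202 peaks were 296 bp wide and no promoter peak was wider than the median. Of the 7 narrower peaks 6 lacked a site, and they included those of rpl-3, cdc-48.1 and rpl-35. The 300 peaks were separate places. The summits of 3 neighbouring pairs lay within 2000 bp of each other, those of icd-2 and wwp-1, pdtf-1 and T26A8.4, and C07A12.7 and pdi-2, and no 2 windows had the same sequence.

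The genes at these promoters included many components of protein synthesis. Of 19973 protein-coding genes, 2.10% (420) had a promoter peak without a site and 1.34% (268) had one with a site, and 0 had both. Against that background, cytosolic ribosomal protein genes had a peak without a site in 36 of 81 (44.4%, 33.4% to 55.9%) and one with a site in 8 of 81 (9.88%, 4.36% to 18.5%). The 36 genes used 34 peaks, since some share a promoter, as rps-14 and rpl-36 do (60.9), and genes in a list are not independent where they share a peak. Their signals ran from 36.0 at rpl-13 to 276.4 at rpl-3, with a median of 59.7. Translation factors had 9 of 40 (22.5%, 10.8% to 38.5%) without a site and 1 of 40 (2.50%) with one. After iff-2, ifet-1 and eef-1A.2, the strongest of these was eef-2, an elongation factor (92.2). All lists were made by gene symbol, so the list of translation factors also counts ifet-1, a repressor of translation. Counts of genes are given with no test, because the lists were drawn up with results of these data known. A shared peak can count in more than 1 list, as that of rps-1 and ifet-1 does.

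Other housekeeping lists stood above the background too. Components of translocation into the endoplasmic reticulum had 4 of 10 (40%, 12.2% to 73.8%) without a site and 0 of 10 with one, namely sec-61.G (119.6), trap-2 (62.8), and trap-3 and sec-61.B on 1 shared peak (53.9). Chaperones and folding enzymes had 13 of 70 (18.6%, 10.3% to 29.7%) without a site and 4 of 70 (5.71%) with one. They were led by pdi-3 (116.8), by hsp-3, a BiP homologue of the endoplasmic reticulum (94.6), by cct-1, a chaperonin subunit (81.8), and by hsp-110 (79.4). Mitochondrial energy genes had 11 of 69 (15.9%, 8.24% to 26.7%) without a site and 3 of 69 (4.35%) with one. They were led by cox-5B (91.0) and cox-5A (90.4), subunits of cytochrome oxidase, and by cyc-1, cytochrome c1 (79.7). Next was nduc-2, a subunit of complex I (76.7), at −810 bp on a peak nearer Y71H2AM.20 (−94 bp). Of the vacuolar ATPase genes 3 of 20 had a peak without a site and 2 of 20 one with a site, with vha-1 (82.6), vha-12 (70.9) and vha-10 (41.8) in the set without.

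Lists for the cell cycle and replication, splicing and vesicle traffic stood above the background as well. Their counts include genes that were not the nearest to the summit of their peak. The share of the proteasome list was also higher, but its interval included the background. Cell cycle and replication genes had 8 of 65 (12.3%, 5.47% to 22.8%) without a site and 0 of 65 with one. They included cdc-48.1 itself (204.0), which the list holds by its symbol. Another was ctf-4, a replisome factor, on a peak shared with the elongation factor gene eef-1G (86.6). The clamp loader subunit gene rfc-4 lay on one shared with eef-1A.1 (84.1). The licensing factor gene cdc-6 (55.2) was also in the list, on a peak nearer acin-1 (−114 bp against −265 bp). The cye-1 peak lay nearer pqn-21 (−104 bp against −544 bp). The genes orc-5 and cyb-1 were counted on 1 shared peak (39.4), nearer orc-5 (−129 bp against −499 bp). Splicing and RNA-binding genes had 6 of 60 (10%, 3.76% to 20.5%) without a site and 0 of 60 with one. They were led by snr-4, an Sm protein (86.5), by prp-19 (60.7), and by rsp-1 and rsp-2, SR proteins on 1 shared peak (48.5). The snr-4 summit lay at −354 bp from snr-4 but 41 bp from the 5′ end of the snRNA gene T11F9.15. The proteasome list had 3 of 33 (9.09%, 1.92% to 24.3%) without a site and 0 of 33 with one, at rpn-3 (79.4), pbs-1 (46.4) and pbs-3 (45.6). The rpn-3 peak was the same one that was counted for hsp-110 among the chaperones. Genes of vesicle traffic had 7 of 86 (8.14%, 3.34% to 16.1%) without a site and 1 of 86 with one. The strongest were rab-18 (69.3), vps-32.1 (61.5), vps-4 (49.7) and rab-11.1 (48.7). The rab-11.1 peak was also that of rpl-7, which was nearer the summit (−301 bp against −680 bp). The vps-32.1 peak lay nearer icd-1 (−408 bp against −645 bp). Those of rab-7 and vps-22 lay nearer W03C9.5 (−176 bp against −789 bp) and C27F2.9 (−58 bp against −609 bp).

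Not every basic machine was represented, and gene families with restricted expression were near or below the background. The tRNA synthetases had 0 of 32 of either kind. Mitochondrial ribosomal protein genes had 2 of 70 (2.86%) without a site, mrpl-28 (52.2) and mrpl-49 (48.3), and 1 of 70 with one. The mrpl-49 peak was also counted for rpl-28. Nuclear transport genes had 1 of 40, imb-3, and ubiquitin enzymes 1 of 29, ubc-3 (38.4), without a site, against 2 of 40 and 1 of 29 with one. Histone genes had 0 of 72 without a site (upper 95% bound 4.99%) and 3 of 72 with one. Cuticle collagens, the typical products of the epidermis, had 2 of 175 (1.14%, 0.139% to 4.07%) without a site and 5 of 175 (2.86%, 0.934% to 6.54%) with one. The 2 were col-38, on the peak it shares with rpl-5 (72.0), and col-63 (35.5), which was among the weakest of the 300. Nuclear hormone receptor genes had 3 of 269 (1.12%) without a site and 7 of 269 (2.60%) with one, the 3 being nhr-58 (41.9), nhr-25, a regulator of epidermal development and moulting (40.6), and nhr-32 (37.1). Homeobox genes of the ceh class had 1 of 63 of each kind, ceh-20, a PBC-class gene (39.5), without a site. Chemoreceptor genes had 0 of 1309 without a site (upper bound 0.281%) and 4 of 1309 (0.306%) with one. C-type lectins had 0 of 240 of either kind, and F-box genes 0 of 322 without a site and 3 of 322 with one. In all, 110 of the 420 genes, at 98 of the 300 peaks (32.7%), stood in one of the 21 lists.

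**Figure D3:**
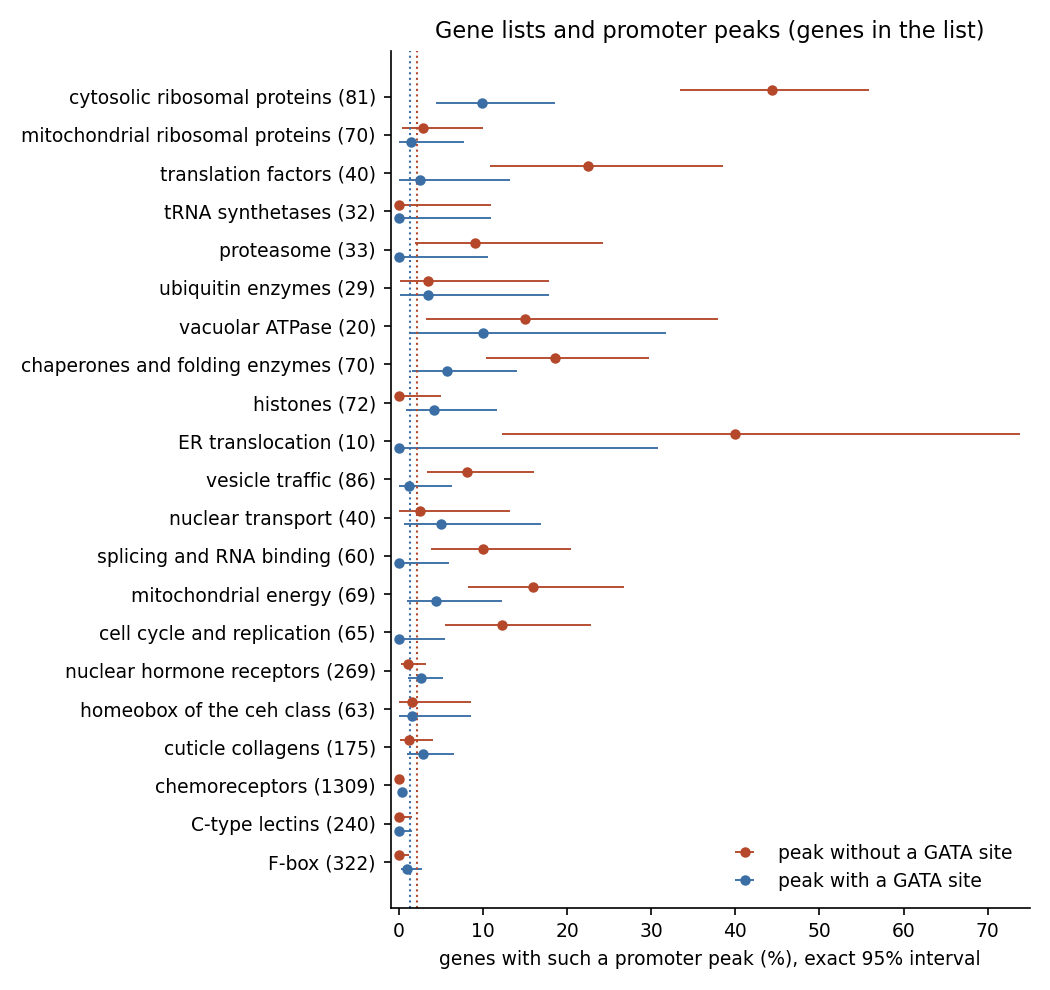
Percentage of each gene list with a promoter peak without a GATA site (red) and with one (blue), with exact 95% intervals and the number of genes in brackets, and dotted lines at 2.10% and 1.34%, the same shares over 19973 genes. Cytosolic ribosomal proteins, ER translocation and translation factors reach 44.4%, 40% and 22.5% without a site, while collagens, nuclear hormone receptors and chemoreceptors stay at 1.14%, 1.12% and 0%.

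Short words were then counted within 100 bp of the summits, on both strands. They were set beside 600 flanking windows of the same length, the promoter tiles, and the tiles of like GC content that also lack WGATAR. The flanking windows were centred 500 bp to each side of the summits of peaks without a site, and none were drawn for peaks with one. Since base composition is tied to the absence of WGATAR, these shares are a description with no test. The first of the 3 CG-rich words printed in capitals above, CTGCGTC, occurred in 50 peaks without a site (16.7%, 12.6% to 21.4%) and in 34 with one (14.8%, 10.5% to 20%), with overlapping intervals. It stood in 1.33% of flanking windows, 2.04% of promoter tiles and 4.0% of the tiles of like GC content. The other words were picked after comparing 2076 words of 6 letters, a word and its reverse complement counted as 1, between the peaks and the site-free tiles, and were chosen because they also differed between the 2 kinds of peak. By excess over the tiles they ranked 7 (AGCGCG) and 26 (GCGTGT). The word ranked 1, CGTCTC, lay in 30.7% of peaks without a site and in 27% with one. It stood in 6.34% of site-free tiles and in 11.2% of those of like GC content. AGCGCG occurred in 75 peaks without a site (25%, 20.2% to 30.3%) and in 12 with one (5.22%, 2.72% to 8.94%), against 3.0% of flanking windows, 2.65% of tiles and 4.53% of tiles of like GC content. GCGTGT occurred in 60 without a site (20%, 15.6% to 25%) and in 21 with one (9.13%, 5.74% to 13.6%), against 3.50% of flanking windows, 3.45% of tiles and 5.81% of tiles of like GC content. At least 1 of the 3 words stood in 149 peaks without a site (49.7%), in 65 with one (28.3%) and in 7.83% of flanking windows.

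In peaks without a site, all 3 words were most frequent in the bin at the summit. AGCGCG and GCGTGT were picked for their excess within 100 bp of these summits, so a higher share there was partly built in. In the central 50 bp bin, CTGCGTC lay in 7.33% of peaks without a site and 6.52% with one, AGCGCG in 11.3% and 2.17%, and GCGTGT in 9.67% and 3.04%. At 150 bp to the left on the plus strand the same words lay in 0.667%, 0.333% and 0.333% of peaks without a site. In bins farther out AGCGCG and GCGTGT each reached 1.67%. In peaks with a site CTGCGTC was also most frequent in the central bin, but AGCGCG was as frequent 100 bp to the right (2.17%) and GCGTGT was more frequent 50 bp to the left (4.35%). WGATAR lay in the central bin of 41.3% of peaks with a site and in the bin 150 bp to the left in 15.2% of them, while its absence at the centre of the other peaks is the selection itself.

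**Figure D4:**
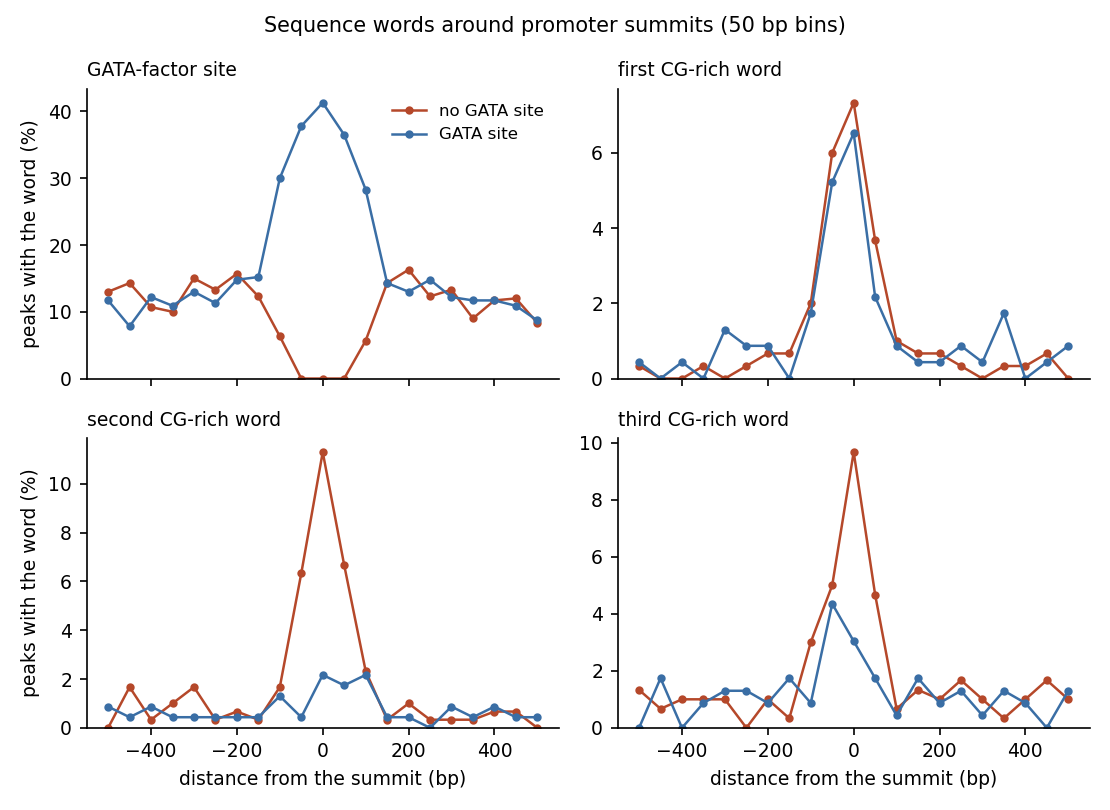
Percentage of promoter peaks that hold each word in 50 bp bins by distance from the summit, for 300 peaks without a GATA site (red) and 230 with one (blue); the first CG-rich word is CTGCGTC, the second is the word AGCGCG and the last is the word GCGTGT, and the vertical scales differ. In the central bin the second word reaches 11.3% without a site and 2.17% with one, and the GATA word reaches 41.3% in peaks with a site, while its gap in the others was made by the selection. The second and last words were picked for their excess near the summits of peaks without a site.

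The words differed in how often they occurred at ribosomal promoters. CTGCGTC occurred in 1 of 34 peaks at ribosomal protein genes (2.94%) and in 49 of the other 266 (18.4%), AGCGCG in 26.5% of the ribosomal and 24.8% of the other peaks, and GCGTGT in 29.4% of the ribosomal and 18.8% of the other peaks. By quartile groups of signal among the 300, low to high, GCGTGT occurred in 16%, 16%, 17.3% and 30.7%, AGCGCG in 17.3%, 32%, 22.7% and 28%, and CTGCGTC in 13.3%, 18.7%, 16% and 18.7%. GCGTGT was therefore more frequent in the strongest quartile group, which also holds the 5 windows printed above. CTGCGTC was present at imb-3, sec-61.G and hsp-3, and the hsp-3 window held all 3 words.

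Among words taken from known sequence elements, the TATA-box core TATAAA was rarer without a site. It occurred in 30 peaks (10%, 6.85% to 14%) against 46 with one (20%, 15.0% to 25.8%), and in 19.3% of flanking windows, 23.9% of tiles and 11.6% of the tiles of like GC content, so the share without a site was close to that of GC-matched promoter sequence. The E-box CACGTG occurred in 9.0% without a site and 13.9% with one, and in 5.33% of the tiles of like GC content. The Sp1-type GGGCGG occurred in 13.7% and 9.13%, against 6.73% of those tiles. TTTCAG, the splice acceptor consensus of worms, was rarer at both kinds of summit, with 15.3% and 11.3%. It stood in 40.8% of the windows flanking peaks without a site and in 31.4% of the tiles of like GC content. GTCAT, the core of the SKN-1 site, occurred in 23.7% and 33.9%, against 27.8% of flanking windows, TGACGT in 8.67% and 9.13%, and runs of 6 T in 51.7% and 48.3%. GTTCGANTC, the B box of tRNA genes, occurred in 2 peaks without a site (0.667%) and in 0 with one. In the search of words of 6 letters, repeats ranked 2 (GAGAGA) and 6 (CACACA) and were common in both kinds of peak. GAGAGA lay in 35.3% of peaks without a site and 43.9% with one, against 10.5% of flanking windows and 15.8% of the tiles of like GC content. CACACA lay in 31% and 21.3%, against 7.17% of flanking windows and 11.1% of those tiles.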

How the data were processed

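ChIP-seq peak lists of 1 group were used: biological replicate 1 (1 library, 10775 peaks), biological replicate 2 (2 technical libraries aligned jointly and counted as 1 replicate, 4080 peaks), their pool (10082 peaks) and the IDR list (1202 peaks), derived from the other 3 per the deposited records. Each peak has a signal value, a −log10 q-value and a summit position, all deposited by the authors. Which aligner, peak caller and scaling they used is not given in the sources used here. Without read counts in the lists the depth is unknown, signals were compared only within a list, and intervals (exact 95% Clopper-Pearson) cover counting error only. The files of the older build ce10 were not used, and the control experiment was not analysed here.

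Genes were taken from Ensembl release 115 and sequence from the WBcel235 genome, which is the same assembly as ce11. Coordinates are 1-based. A WGATAR word had to lie wholly within 100 bp of the summit. Overlap meant at least 1 shared bp. Promoter tiles were 6 abutting windows per gene, as long as the windows around summits. The 7 properties outside the selection rule were compared by two-sided Fisher's exact tests with Benjamini-Hochberg adjustment at 0.05. Peaks of 1 list are not replicates of a condition, so p-values describe this list. Named genes are those at the 25 strongest peaks, at the 10 strongest overlapped in replicate 2, up to 4 per gene list and those at the thresholds. Genes outside this rule (such as rpl-13, rps-14, rpl-36, hat-1, nmat-1, the pairs of neighbouring summits, and his-37, puf-9, wdr-23, nhr-80 and F16G10.14 among peaks with a site) were picked with their values in view. The members and lists were chosen with earlier results of these data known. The word search and the tests were tested on simulated data (Python 3.11.15, scipy 1.17.1, statsmodels 0.14.6, pandas 2.3.3).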

Additional observations from a re-analysis of the deposited data

How the results depend on the processing

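The number of promoter peaks without a site was 300, and 131 with a GATA search of 250 bp, 140 with any GATA core excluded, 163 among the peaks above the list's median signal, and 157 within the GC quartiles. Differences below are percentage points, without a site minus with one. For promoters of more than 1 gene the difference was 12.4 with the 250 bp search (Fisher's exact test, adjusted p = 0.0544, or 0.0466 without the void test of peak width), and it was past the threshold under the other alternatives except replicate 2 alone. For summits within 300 bp upstream it passed at 11.7 (nearest gene only), 14.9 (50 bp search), 13.9 (TGATAA only), 13.7 (500 bp in place of 300 bp) and 10.8 (peak width left out of the adjustment), and missed the threshold at 2.87 (promoter window 500 bp up, 100 bp down), 5.48 (250 bp search) and 6.21 (peaks above the median signal), among others. For overlap by replicate 2 it was 0.536, and it reversed to −1.72 (50 bp search), −1.17 (any core), −0.263 (TGATAA only), −0.480 (peaks above the median signal), −0.643 (GC quartiles), −0.322 (ribosomal promoters left out) and −1.06 (summit inside the replicate 2 peak). For X it was −1.03, and it reversed to 4.43 (TGATAA only), 0.0835 (words overlapping the window's edge) and 0.266 (ribosomal promoters left out). No test of these reversed differences passed, and the cause was not tested. Leaving out either replicate, the 1202 strongest peaks of the other gave 175 to 296 peaks without a site, −6.33 to 20.7 points for promoters of more than 1 gene, 0.143 to 11.4 for summits within 300 bp upstream (passing at 11.4, replicate 1 alone), and −0.420 to 2.77 for non-coding genes. The lower end of each range is replicate 2 alone. Leaving out peak width, which could not differ, 71 of 95 values under the alternatives kept their direction and side of the threshold, or their count within 1.5 times. The GC, ribosomal and peak width alternatives were chosen after seeing the data. With the nearest gene only, promoters of more than 1 gene have no value by construction, overlap by replicate 2 has none in a single replicate, and signal none among peaks above the median signal. No paired analysis was possible because there is only 1 group. The precision is limited by the number of peaks, since the lists give no depth.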
